A study of Mus musculus with 12 samples.

Results

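The comparison described here was made inside 3 single-cell RNA libraries of wild-type mouse testis, between the cells the submitters annotated as early pachytene and the cells they annotated as pre-meiotic. All wild-type libraries collected 260 h after retinoic acid were used, and every cell with either annotation entered. These were 206 of the 929 annotated cells of the series: 154 early pachytene cells (25, 57 and 72 in libraries 1, 2 and 3) and 52 pre-meiotic cells (24, 11 and 17). A further 3 wild-type cells of these libraries were annotated as late pachytene and were left out. The UMIs (unique molecular identifiers, one per captured molecule) of each class were summed within each library, which gave 6 sums that form 3 pairs.

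The mice were C57BL/6. From 2 days after birth they received WIN 18,446, which blocks retinoic acid synthesis, by mouth for 7 days, and at Day 8 a retinoic acid injection started spermatogenesis in step. All groups share that treatment, so both classes come from synchronised juvenile testes. Single germ cells were picked by hand and their cDNA was barcoded and sequenced from the 3′ end by a modified Smart-seq2 method. Whether each library came from its own mouse is not stated, so p-values measure the spread between libraries, which may be technical. The series holds 12 libraries, and the 3 others used below were collected at 260 h from mice labelled Zfp541-KO, a knockout of a zinc-finger gene of spermatocytes.

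Spermatogonia are the mitotic cells at the base of the seminiferous tubule. Retinoic acid moves them through differentiating divisions into meiosis, where chromosomes break, pair and recombine during prophase. Pachytene is the stage at which homologues are fully joined by the synaptonemal complex and the X and Y are silenced in the sex body. A programme of genes needed only later in spermatids is first transcribed at that stage. Comparing the classes within a library asks how the transcriptome of the same sample differs between cells before meiosis and cells in that stage.

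The annotation itself was made by clustering the expression of these cells. A test between the classes therefore cannot show that they differ, and the adjusted p-values below say only how alike a difference was in the 3 libraries. Of 11718 genes tested with edgeR's paired quasi-likelihood test, 3306 were higher in early pachytene cells (28.2%) and 3397 were lower (29.0%) at a Benjamini-Hochberg adjusted p under 0.05. In all, 1947 of the higher and 2600 of the lower genes differed at least 2-fold. Nothing is read from those shares, and the counts of list members below stand beside them as descriptions. The sums of the 2 classes did not overlap for 4884 of the 6703 called genes (72.9%). A lack of overlap noted for a gene below is therefore common among called genes.

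Library 3 stood apart. The early pachytene cells of libraries 1 and 2 fell in one of the submitters' clusters (25 of 25 and 56 of 57 cells), while all 72 of library 3 fell in another, which also holds the 260 h early pachytene cells labelled knockout. Library 3 was also deeper, with a median of 151010 gene UMIs per early pachytene cell against 63791 and 63834 in libraries 1 and 2. Zbtb16 was higher in the pre-meiotic and Sycp3 in the early pachytene sum of each library, which describes the annotation and does not test it. Without library 3, 2788 genes were higher and 2954 lower, no list below gained or lost more than 3 calls in a direction, and 5348 of the 6703 calls were made again in the same direction. The first principal component of the 6 sums (57.6% of the variance) separated the classes and the second (23.7%) separated the libraries. Barcodes came from plates of 96, and 35 barcode sequences occur in kept cells of all 3 libraries.

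Genes of spermatogonia were lower in early pachytene cells. Of 19 tested genes of undifferentiated spermatogonia, 18 were lower and 1 was higher, with a median log2 fold change of -2.62 against 0.00 over all genes tested. Zbtb16 encodes PLZF, a repressor that maintains spermatogonial progenitors, and lies at chr9:48654297-48836222 (mm10). In the pre-meiotic sums it stood at 141, 226 and 243 CPM (a class sum scaled to a common total of gene UMIs, with TMM factors) in libraries 1 to 3, and in the early pachytene sums at 7.97, 12.1 and 8.37. The classes did not overlap, and the log2 fold change of -4.49 ± 0.22 (SE, n = 3 pairs; edgeR adjusted p = 5.7e-09) was the largest fall among genes of at least 50 CPM that the naming rule covers. Sall4, a pluripotency-type zinc-finger factor of progenitors, went from 96.7, 160 and 143 CPM to 11.3, 15.9 and 22.1. Gfra1, the receptor for the niche signal GDNF, was low in both classes: 24.2, 15.1 and 13.1 CPM before meiosis and 1.33, 5.3 and 1.88 CPM in early pachytene cells.

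Id4, an inhibitor of helix-loop-helix factors used as a stem cell marker, was the exception. It read 64.2, 176 and 143 CPM in pre-meiotic cells and 346, 371 and 343 CPM in early pachytene cells, a log2 fold change of 1.56 ± 0.22 (edgeR adjusted p = 6.8e-05). The lowest early pachytene value lay above the highest pre-meiotic one. Another 9 genes of that list were too low to test. Stem cell genes among them, such as Nanos2 (at most 6.95 CPM in any sum), were near the limit of detection in both classes.

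Genes of differentiating spermatogonia showed the same direction in 16 of 22 tested members, with 3 higher and a median of -2.45. Kit, the receptor tyrosine kinase that marks differentiation, fell in each library from a different starting level: from 143 to 25.9 CPM in library 1, from 52.1 to 8.68 in library 2 and from 14.7 to 2.92 in library 3. The pre-meiotic level of library 3 was below the early pachytene level of library 1, so Kit overlapped between classes although every pair fell (log2 fold change -2.46 ± 0.27, edgeR adjusted p = 3.3e-06). Stra8, the retinoic acid target that licenses meiotic entry, varied more still. Its pre-meiotic sums held 66.2, 358 and 16.8 CPM and its early pachytene sums 11.3, 39 and 4.61. The pre-meiotic cells of the 3 libraries thus differed among themselves in the genes that order spermatogonial stages, with library 2 highest for Stra8 and library 1 for Kit.

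The 3 members that were higher were Ddx4, the germ-cell RNA helicase, at 674, 780 and 639 CPM before meiosis and 1825, 1242 and 1017 CPM after; Tex101, a surface glycoprotein; and Sohlh2, a germ-cell transcription factor gene whose call was not made without library 3 (adjusted p = 0.054). Ddx4, Dazl and Tex101 are abundant, and the summed level of the list rose in libraries 1 and 3 and fell slightly in library 2. It went from 5416 to 7470 CPM in library 1, from 5189 to 5092 CPM in library 2 and from 4470 to 4604 CPM in library 3. Dazl, an RNA-binding translation regulator of germ cells, read 1470, 1156 and 1083 CPM against 1845, 1126 and 1369 and was not called (log2 fold change 0.21 ± 0.10, adjusted p = 0.098). For the undifferentiated list the sums were separate, at 2245 to 2986 CPM against 742 to 809.

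**Figure D1:**
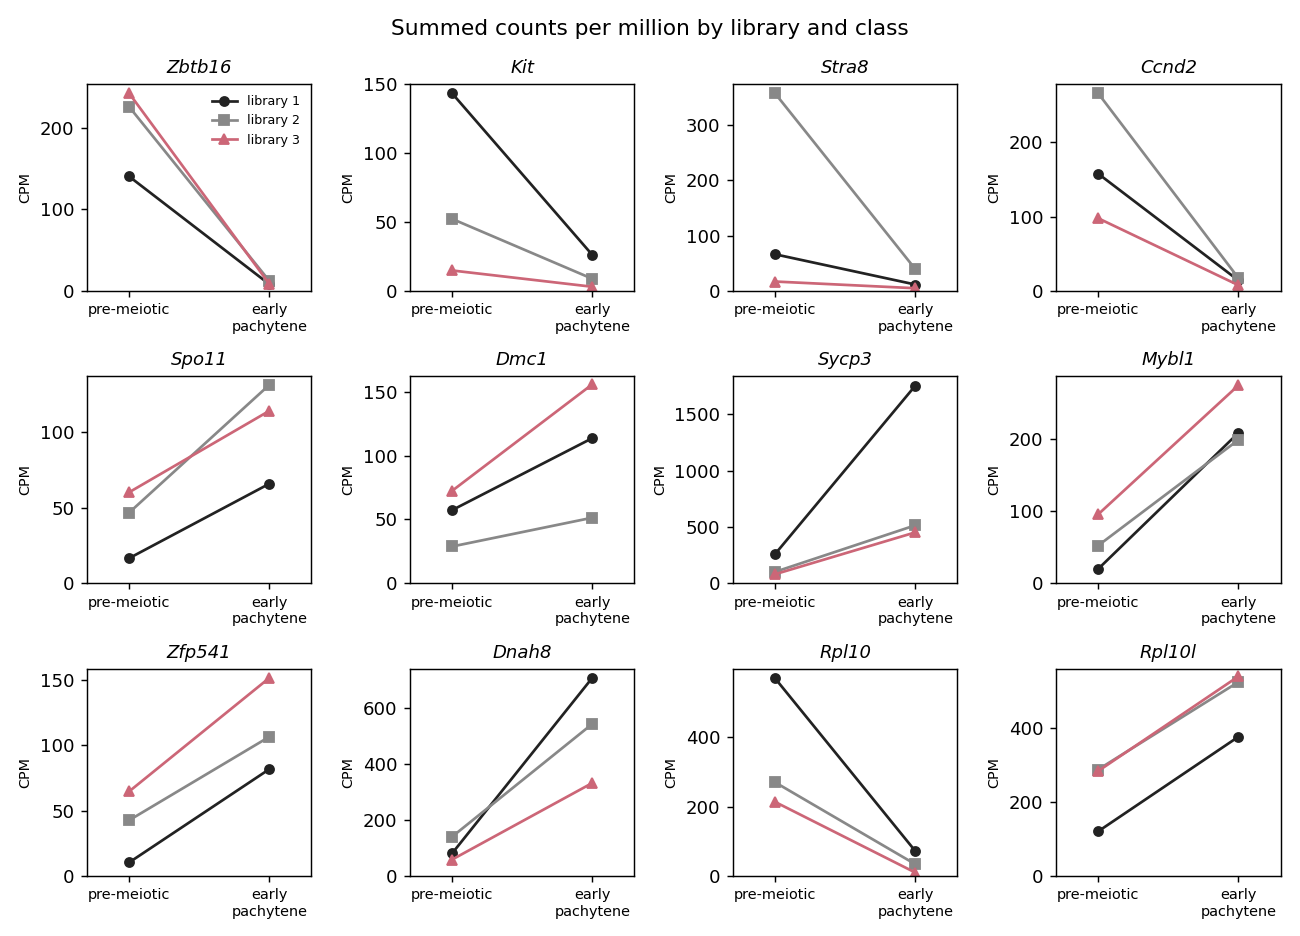
CPM of 12 genes in the pre-meiotic and early pachytene sums of libraries 1, 2 and 3; each line joins the pair of 1 library and each vertical axis starts at 0. Zbtb16, Kit, Stra8, Ccnd2 and Rpl10 fell in all 3 pairs and the other 7 genes rose in all 3 pairs, from starting levels that differed between libraries, as for Stra8 (16.8 to 358 CPM before meiosis).

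Pooled over libraries, UMIs of Zbtb16, Stra8 and Kit were found in a smaller share of early pachytene cells. After every cell was thinned to 44000 gene UMIs, Zbtb16 had a UMI in 46 of 52 pre-meiotic cells (88.5%) and in 52 of 154 early pachytene cells (33.8%). Stra8 was found in 63.5% and 46.8% of cells, and Kit in 55.8% and 27.9%. The libraries give unlike parts of the 2 classes, so pooled shares also depend on that mix. In libraries 1 to 3, Kit was in 87.5%, 54.5% and 11.8% of pre-meiotic and 68%, 31.6% and 11.1% of early pachytene cells. Its shares were thus nearly equal in library 3. Stra8 was in 66.7%, 100% and 35.3% against 40%, 89.5% and 15.3%. Transcripts of other cell types were also found: the haemoglobin gene Hbb-bs had a UMI in all 24 pre-meiotic and all 25 early pachytene cells of library 1, in none of either class in library 2, and in 4 of 17 and 5 of 72 cells of library 3. Clu, an abundant Sertoli gene, had a UMI in 51 of 52 pre-meiotic and 148 of 154 early pachytene cells. Hsd3b1, a Leydig steroid enzyme gene, had one in 20 of 52 and 41 of 154 cells (14 of 25, 26 of 57 and 1 of 72 early pachytene cells in libraries 1 to 3). The early pachytene shares of Zbtb16 (8 of 25, 28 of 57 and 16 of 72) and Kit (17 of 25, 18 of 57 and 8 of 72) were of that order in libraries 1 and 2, so no expression in early pachytene cells is read from them.

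Cell-cycle genes fell in part. The G1 cyclin Ccnd2, which drives spermatogonial division, went from 158, 266 and 97.7 CPM to 14, 17.1 and 7.53 CPM (log2 fold change -3.74 ± 0.21, edgeR adjusted p = 9.9e-09), and Cdk6, a G1 kinase, had a log2 fold change of -3.43 ± 0.40. Of 38 DNA replication genes, 21 were lower and 5 higher, with a median of -0.79. Mcm2, a subunit of the replicative helicase, fell from 200, 137 and 121 CPM to 40.5, 18.6 and 17.4. Pcna, the polymerase clamp, went the other way at 330, 155 and 123 against 446, 224 and 189 CPM (adjusted p = 0.0043, and 0.054 without library 3). Ccne2, an E-type cyclin, rose from 99.2, 20.6 and 35.2 to 223, 128 and 99 CPM.

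Mitotic genes were divided. Of 28 tested, 14 were lower and 7 higher, with a median of -0.37. Cyclin A2 (Ccna2) and cyclin B1 (Ccnb1) had log2 fold changes of -2.26 ± 0.21 and -1.83 ± 0.16, while cyclin B2 (Ccnb2) stood at 128, 121 and 276 CPM before and 231, 253 and 365 CPM after (0.75 ± 0.16). The kinase subunit Cks2 rose from 644, 414 and 323 to 2006, 896 and 608 CPM. Proliferation regulators fell in 11 of 21 and rose in 4, and the 4 that rose included the cell-cycle inhibitors Cdkn2c (1.52 ± 0.21) and Cdkn2d (1.32 ± 0.20) and the pocket protein Rbl1 (1.17 ± 0.18). Immediate early genes, which respond to growth signals and to cell handling, were lower in 10 of 17 and higher in none, with 8 lower without library 3.

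RNAs for cohesin, the ring that holds sister chromatids, were divided by subunit. Of 13 genes for the mitotic complex and its loaders, 9 were lower and 1 was higher, with the kleisin Rad21 at 215, 244 and 294 CPM before and 55.8, 48.9 and 63.5 CPM after. The 2 largest falls of the list were the X-linked Stag2 and Smc1a (log2 fold changes -3.52 and -3.13). Of 7 meiotic subunits and partners, 3 rose, 1 fell and 3 were not called. Smc1b went from 603, 245 and 261 to 1017, 665 and 547 CPM and Stag3 from 266, 236 and 227 to 532, 388 and 426 CPM. Rec8, the meiotic kleisin, was the member that fell, from 9.54, 11 and 11 CPM to 1.99, 3.86 and 4.05 (adjusted p = 0.013). The loader Nipbl was the mitotic-list gene that rose (0.94 ± 0.16).

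Genes of meiotic entry were split, 4 higher and 5 lower of 10 tested. The lower ones included Stra8 and the retinoic acid receptor Rarg. The higher ones included Meioc, which with the helicase Ythdc2 extends meiotic prophase: Meioc read 93.5, 152 and 206 CPM before and 463, 382 and 510 CPM after. Ythdc2 went from 75.1, 60.3 and 78.1 to 137, 136 and 188 CPM. The classes did not overlap for either gene, as for 72.9% of all called genes.

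Called genes of the break formation list were mostly lower, and called genes of the strand invasion and crossover lists mostly higher. Of 13 tested genes of break formation, 9 were lower and 2 higher, with a median of -1.46. That list is wider than the machinery that makes DNA breaks, and Tex15, Hells and Atm are among its lower genes. Rec114, a partner of the break enzyme, went from 33.1, 11 and 5.31 to 4.65, 0.723 and 0.847 CPM, and Mei4, its partner, had a log2 fold change of -2.34 ± 0.72 from at most 9.6 CPM in any sum. The kinase Atm, which limits breaks, fell from 268, 132 and 121 to 55.2, 23.9 and 18.6 CPM. Spo11, the break enzyme itself, rose from 16.5, 46.6 and 60.1 to 65.8, 131 and 114 CPM (1.38 ± 0.23, adjusted p = 0.00013), and so did Ankrd31, which directs breaks to the region shared by X and Y (0.76 ± 0.15). Prdm9, which places breaks, was too low to test, with 52 UMIs in the pre-meiotic and 58 in the early pachytene sums. These are raw counts and do not show an equal level. In libraries 1 to 3 the early pachytene sums held 1783543, 4190716 and 10879840 gene UMIs, against 1710847, 682733 and 2214687 in the pre-meiotic sums.

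Of 20 strand invasion genes, 12 were higher and 2 lower (median 0.81). Psmc3ip, the HOP2 partner of the meiotic recombinase, rose from 88.4, 68.6 and 40.1 to 474, 275 and 194 CPM, and Hsf2bp, which brings BRCA2 to breaks, from 107, 114 and 110 to 461, 333 and 349 CPM. The recombinase Dmc1 changed less, from 57.2, 28.8 and 72.4 to 114, 51.3 and 156 CPM (1.00 ± 0.19, adjusted p = 0.00046), and its values overlapped between classes, with library 2 lowest in both. Of 20 crossover genes, 10 were higher and 2 lower (median 0.95): the helicase Hfm1 reached 373, 275 and 284 CPM from 52.2, 94.6 and 98.9, and Mlh3, part of the crossover nuclease, 185, 142 and 137 CPM from 54.7, 52.1 and 47. Tex11, an X-linked crossover gene, was the larger of the 2 falls, from 297, 96 and 101 CPM to 43.2, 9.16 and 14.8.

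The synaptonemal complex genes moved together. Of 13 tested, 11 were higher and 1 lower (median 1.15; 10 and 0 without library 3). The axis protein gene Sycp3 rose from 260, 101 and 80.5 CPM to 1756, 515 and 452 (log2 fold change 2.55 ± 0.13, edgeR adjusted p = 6.8e-09). Hormad1, which marks unjoined axes, rose from 233, 174 and 132 to 2126, 842 and 680 CPM, and the transverse filament gene Sycp1 from 808, 952 and 874 to 2883, 2403 and 1700 CPM. For each of these 3 genes every early pachytene sum exceeded every pre-meiotic sum, and library 1 was highest among the early pachytene sums. UMIs of these genes were also found in cells annotated as pre-meiotic: after thinning, Sycp3 had a UMI in 50 of 52 pre-meiotic cells and Sycp1 in all 52. Carry-over of RNA between cells was not tested, so no expression before meiosis is read from these shares. Trip13, the ATPase that strips HORMAD proteins from joined axes, was the member that was lower (-0.63 ± 0.20, adjusted p = 0.015, and 0.12 without library 3). Of 14 genes that anchor telomeres to the nuclear envelope, 7 rose, among them the anchor subunits Majin (1.65 ± 0.20) and Terb1 (1.98 ± 0.29), and 3 fell, including the nuclear lamina gene Lmnb2 (-2.31 ± 0.35).

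**Figure D2:**
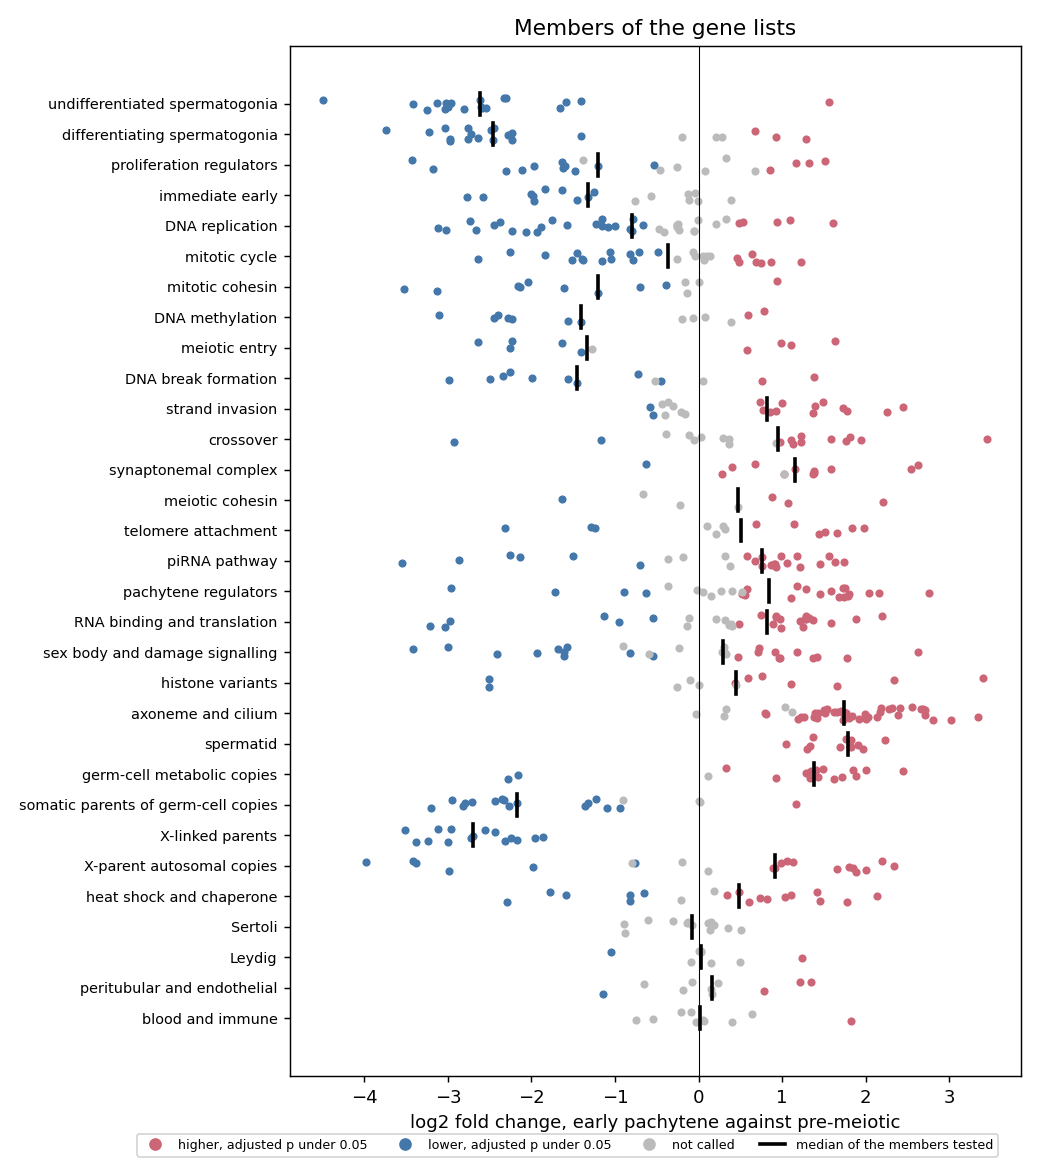
Log2 fold change of each tested member of the 31 gene lists, early pachytene against pre-meiotic; each point is 1 gene, coloured by its edgeR call, and the black bar is the median of the list. Spermatogonial lists lie to the left (medians -2.62 and -2.45), axoneme and spermatid lists to the right (1.74 and 1.79), and lists of somatic cells near 0.

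Regulators of pachytene transcription were higher in 17 of 28 and lower in 4 (median 0.85). Mybl1 encodes A-MYB, an activator of pachytene genes and of pachytene piRNA precursors. It rose from 19.7, 52.1 and 95.3 CPM to 208, 198 and 274 (log2 fold change 2.16 ± 0.29, edgeR adjusted p = 9.1e-05). Mybl1 had a UMI in 69.2% of thinned pre-meiotic and 99.4% of early pachytene cells, pooled over libraries. The pre-meiotic share was 41.7% in library 1 but 90.9% and 94.1% in libraries 2 and 3, against 100%, 98.2% and 100% of early pachytene cells. Kctd19, which encodes a partner of ZFP541, rose from 21.6, 38.4 and 39.2 to 343, 189 and 170 CPM (2.76 ± 0.31). Zfp541 itself (chr7:16061814-16096334, mm10) rose from 10.2, 42.5 and 64.6 to 81.7, 107 and 152 CPM (1.68 ± 0.28, adjusted p = 0.00014), and the fold was largest in library 1, where the starting level was lowest. The ciliary gene activator Rfx2 (1.79 ± 0.18) and the testis bromodomain gene Brdt (1.73 ± 0.18) rose as well. Taf7l, a germ-cell copy of a general transcription factor, is X-linked and fell from 621, 422 and 464 to 69.1, 55.2 and 65.1 CPM.

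Since Mybl1 was among the genes that rose, the letters bound by MYB proteins were looked for in the 250 bases before the start of each gene (RefSeq, GRCm38.p6, 1 start per gene, 8784 tested genes matched). The first word searched was CAACGG, the next was CAACTG, then came TAACGG, and the last was TAACTG, all on both strands; CAACTG is also an E-box of the form CANNTG. At least 1 stood in 22% of the tested genes, in 29.7% of the 1400 genes that were higher at least 2-fold and in 35.9% of the 206 that were higher at least 4-fold. The share was 18.2% in the 1961 genes that were lower at least 2-fold and 17.5% in the autosomal ones among them. Without the E-box word the shares were 14.7% of all tested genes, 21.3% and 25.7% of the higher genes and 11.3% of the lower ones. The promoters of the 3 sets differed in base composition too, with a median of 17 CG pairs in all tested genes, 14 and 9 in the higher genes and 16 in the lower ones, and the part of composition in the word counts was not tested.

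Among other words, GTTGCC, part of an RFX site, went the same way as the MYB words. It was in 11.2% of all tested, 14.3% and 16.5% of the higher and 9.9% of the lower genes. Its differences were smaller in percentage points, from a lower share in all tested genes. The remaining words were not more common in the higher genes than in all tested genes. GGGCGG, a GC box, was in 60.7%, 52.8%, 44.2% and 66.0%, the partial CRE TGACGT in 10.9%, 9.43%, 6.80% and 9.38%, and the E-box CACGTG in 9.26%, 8.21%, 9.22% and 10.3%. Over 27025 RefSeq promoters of any gene the MYB words were in 23.7%.

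Of 61 named higher genes with a promoter in the table, 24 held a MYB word. The stretches below, with up to 30 bases on each side of the word nearest the start, are those of the 8 that have a single listed start and the word within 100 bases of it. They show where the word sits in genes of the axis, of cohesin, of the piRNA pathway and of the axoneme; the word is in capitals, and a match is a run of letters and not a measured binding site.
Sycp3 (chr10:88459482-88459547, + strand): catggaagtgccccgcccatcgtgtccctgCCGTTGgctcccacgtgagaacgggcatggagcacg
Sycp1 (chr3:102936101-102936163, - strand): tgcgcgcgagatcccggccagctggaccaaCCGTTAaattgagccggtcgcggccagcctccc
Stag3 (chr5:138280438-138280503, + strand): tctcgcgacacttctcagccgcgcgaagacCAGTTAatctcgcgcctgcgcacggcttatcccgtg
Meioc (chr11:102665548-102665584, + strand): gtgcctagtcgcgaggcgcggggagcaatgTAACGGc
Piwil1 (chr5:128736143-128736208, + strand): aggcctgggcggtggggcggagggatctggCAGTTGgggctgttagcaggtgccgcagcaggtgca
Dnah7c (chr1:46425445-46425510, + strand): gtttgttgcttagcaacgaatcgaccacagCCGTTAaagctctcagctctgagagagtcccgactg
Dnah8 (chr17:30626875-30626935, + strand): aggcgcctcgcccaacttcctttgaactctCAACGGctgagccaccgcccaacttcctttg
Tktl2 (chr8:66511681-66511739, + strand): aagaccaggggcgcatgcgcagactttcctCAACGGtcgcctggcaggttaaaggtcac

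Most piRNA pathway genes were higher. Of 26 tested genes, 16 were higher and 6 lower (median 0.76). Piwil1, the Argonaute of pachytene piRNAs, rose from 99.2, 474 and 351 to 546, 1078 and 780 CPM, and the Tudor-domain genes Tdrd12 (1.46 ± 0.18) and Tdrd9 (1.22 ± 0.17) rose with it. Piwil4, the nuclear Argonaute of fetal germ cells, fell from 26.1, 50.7 and 19.6 to 1.33, 4.34 and 1.98 CPM (-3.55 ± 0.41, edgeR adjusted p = 6.3e-06). Morc1 and Tex15, which act with it in transposon silencing, fell from 87.8, 79.5 and 86.3 to 22.6, 27 and 12.7 CPM and from 461, 429 and 260 to 92.4, 65.8 and 75.2 CPM. The DNA methylation genes went down in 7 of 13 and up in 2, with the de novo enzymes Dnmt3a (-2.45 ± 0.23) and Dnmt3b (-2.29 ± 0.26) among the falls.

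RNA-binding and translation genes were higher in 17 of 30 and lower in 6. The cold-shock proteins that coat stored mRNA rose, with Ybx1 at 276, 385 and 430 CPM before and 704, 888 and 920 CPM after and Ybx3 at 169, 389 and 296 before and 528, 826 and 609 after. The 3 largest falls were Msi2, Nanos3 and Elavl2, RNA-binding proteins of spermatogonia (-3.22, -3.03 and -2.98). Heat shock and chaperone genes were higher in 11 of 19 and lower in 6. Hspa2 and Hspa4l, the meiotic chaperones, rose by 1.45 and 1.42 on the log2 scale, and the HSP90 genes went in opposite directions: Hsp90aa1 from 2594, 2039 and 1340 to 5165, 3675 and 2046 CPM, and Hsp90ab1 from 2471, 2088 and 1387 to 1372, 991 and 958 CPM.

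Most tested genes of the sperm tail, which is built only after meiosis, were already higher. Of 46 tested genes of the axoneme and cilium, 41 were higher and none lower, with a median of 1.74 (41 and 0 without library 3). Listed genes near 0 before meiosis pass the expression filter only by being high later, so these counts describe the tested genes alone. Spag17, a central-pair protein, rose from 14.6, 38.4 and 20.8 CPM to 300, 254 and 170 (log2 fold change 3.34 ± 0.26, edgeR adjusted p = 2.5e-07). The dynein heavy chain Dnah8 rose from 80.1, 140 and 58.1 to 710, 544 and 333 CPM, and the fibrous sheath gene Fsip2 from 52.2, 85 and 61.7 to 562, 513 and 383 CPM. Dnah7a, Dnah7b and Dnah7c (3.02, 2.71 and 2.91) are near copies on chromosome 1 whose reads the counting could split. The median log2 ratio of the list was 2.37 in library 1, 1.47 in library 2 and 1.41 in library 3. Another 12 listed genes in the files were too low to test, each with a mean of at most 6.59 CPM. They include Foxj1, the master activator of motile cilia, with 9 UMIs in the pre-meiotic and 82 in the early pachytene sums. Those are raw counts, and the early pachytene sum held more gene UMIs in every library.

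Of 34 spermatid genes, 12 could be tested and all 12 were higher. Since genes at 0 before meiosis pass the expression filter only by being high later, that count describes the tested genes alone. The acrosomal protease Acr rose from 11.4, 30.2 and 32.3 to 83.7, 99.5 and 74.2 CPM and the acrosomal gene Dkkl1 from 147, 245 and 163 to 817, 709 and 460 CPM. The other 22 had means of at most 3.75 CPM: the protamine gene Prm1 had 0 UMIs in the pre-meiotic sums and 1 in the early pachytene sums. The only histone variants to be higher by over 2 on the log2 scale were testis-specific, Hist1h2ba (TH2B; 17.2, 4.11 and 6.13 CPM before, 207, 39 and 58.1 after) and the linker histone Hist1h1t, from 9 UMIs in all pre-meiotic cells to 119 (2.33 ± 0.71, adjusted p = 0.011). The centromeric variant Cenpa fell from 192, 52.1 and 273 to 27.9, 12.5 and 46.1 CPM.

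Kcnk10, a potassium channel gene on chromosome 12, had the largest rise of the genes the naming rule covers. It stood at 16.5, 19.2 and 15.5 CPM in pre-meiotic sums and at 245, 217 and 173 CPM in early pachytene sums (log2 fold change 3.62 ± 0.21, edgeR adjusted p = 1.4e-08). After thinning it had a UMI in 57.7% of pre-meiotic and 96.8% of early pachytene cells. Elfn2, a synaptic adhesion gene and also among the 12 largest rises, stood at 15.9, 35.7 and 14.7 against 216, 203 and 109 CPM. The others of the 12 largest rises were Hist1h2ba, Kctd19, Fsip2, Als2cr12, Lrriq1, Ccdc173 and the axonemal genes above.

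Metabolic genes were split by form. Of 18 tested genes listed as germ-cell forms, 15 were higher and 2, Acot13 and Hk1, were lower (median 1.38). Of 19 common forms, 15 were lower and 1 higher (median -2.17), and 5 of those that fell are X-linked. Pdha2, the autosomal copy of the pyruvate dehydrogenase subunit gene, rose from 82.1, 145 and 122 to 468, 418 and 353 CPM, while its X-linked parent Pdha1 fell from 45.2, 27.4 and 39.7 to 9.3, 10.4 and 6.21 CPM. Gapdh, the autosomal glycolytic gene, fell from 753, 322 and 175 to 128, 42.7 and 23.1 CPM, with the reservation that Gapdh has many pseudogenes that can share its reads. The exception among common forms was Ldha, which rose from 107, 196 and 71.9 to 329, 433 and 120 CPM. Pgk2 and Pgk1 were low in all sums: Pgk2 read 1.27, 8.23 and 11.9 before and 3.99, 15.4 and 6.12 CPM after and was not called, and Pgk1 did not pass the filter (10.2, 2.74 and 3.27 against 1.99, 0.482 and 0.188 CPM).

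X-linked RNA was a smaller part of the total in early pachytene cells. X-linked genes gave 2.5%, 1.83% and 1.79% of gene UMIs in the pre-meiotic sums of libraries 1 to 3 and 0.582%, 0.372% and 0.359% in the early pachytene sums, which is 4.30-, 4.92- and 5.00-fold less. The mean difference was -1.60 ± 0.28 percentage points (SD, n = 3 pairs); the exact sign-flip test over 3 pairs cannot go below its value here, p = 0.25 (two-sided; adjusted p = 0.25 over 5 measures). Within each library no cell of one class reached the range of the other. In library 1 the highest early pachytene cell had 1.35% and the lowest pre-meiotic cell 2.22%, in library 2 the limits were 1.14% and 1.35%, and in library 3 they were 0.659% and 1.22%.

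**Figure D3:**
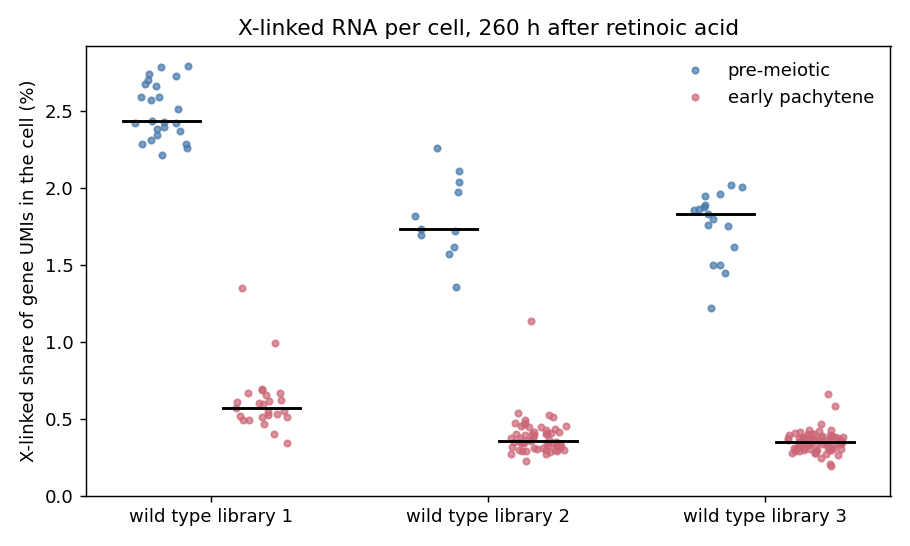
X-linked share of the gene UMIs of each cell, in percent, for pre-meiotic and early pachytene cells of wild-type libraries 1, 2 and 3; each point is a cell and the bar is the class median. The classes are apart in every library; the highest early pachytene cell had 1.35%, 1.14% and 0.659% in libraries 1 to 3.

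Gene by gene, 321 of 360 tested X-linked genes were lower (89.2%) and 2 were higher, with a median log2 fold change of -2.69, and 327 of 393 were lower without library 3. Autosomes had 27.0% of tested genes lower, from 23.3% to 34.2% between chromosomes, and medians from -0.06 to 0.16. Dkc1, the X-linked pseudouridine synthase of ribosomal RNA, went from 154, 111 and 83.4 to 28.6, 6.75 and 4.61 CPM. The X-linked deubiquitinase gene Usp26 fell from 424, 140 and 215 to 33.9, 6.27 and 8 CPM (-4.30 ± 0.23, edgeR adjusted p = 8.2e-09). The 2 X-linked genes that were higher, named here after their values were seen, were Ndufa1, a subunit of respiratory complex I, and Gm364. Ndufa1 read 305, 177 and 231 CPM before meiosis and 609, 364 and 480 CPM after. All 15 tested X-linked parents of autosomal retrogenes were lower.

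On the Y, 7 of 9 tested genes were lower and none higher. The RNA helicase gene Ddx3y went from 61.1, 17.8 and 25.8 to 7.97, 4.82 and 7.24 CPM. Zfy1 and Zfy2, zinc-finger genes of the meiotic checkpoint, were not called and differed between libraries: Zfy2 read 5.72, 2.74 and 8.58 CPM before and 3.99, 3.37 and 24.5 CPM after, so library 3 alone was high. The same held for Zfy1, at 16.5, 11 and 15.5 CPM before and 5.98, 3.62 and 23.6 CPM after. The Y-linked share of UMIs fell 6.33-, 5.90- and 2.28-fold in libraries 1 to 3.

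**Figure D4:**
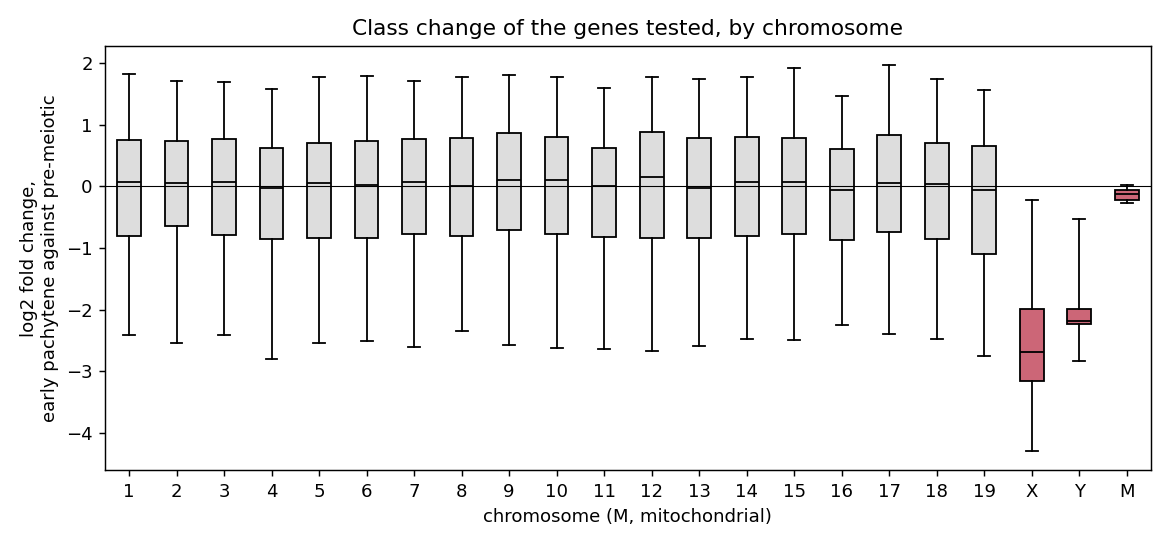
Log2 fold change of all tested genes, early pachytene against pre-meiotic, by chromosome; boxes show the quartiles and median and whiskers the 5th to 95th percentiles. The X (median -2.69, 360 genes) and Y (-2.18, 9 genes) lie below every autosome, whose medians run from -0.06 to 0.16.

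Genes that act at the silenced sex chromosomes and in damage signalling were divided, 11 higher and 10 lower of 28. Mdc1, which spreads the damage mark over the sex body, rose from 128, 156 and 168 to 593, 462 and 499 CPM, the histone gene H2afx that carries the mark rose from 43.9, 147 and 280 to 152, 328 and 719, and the kinase gene Atr rose from 218, 295 and 320 to 859, 629 and 657. The checkpoint kinase gene Chek2 (-2.42) and Brca1 (-1.62 ± 0.21) fell. Scml2 encodes a Polycomb-like protein of the sex body and is itself X-linked; it fell from 443, 256 and 182 to 40.5, 27.5 and 33.5 CPM.

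Autosomal copies of X-linked genes rose in 12 of 21 tested members of their list and fell in 6. The list also holds genes that are themselves on a sex chromosome (Hnrnph2, Nxf2, Hmgb3, Uba1y and Eif2s3y), and these are 5 of the 6 falls. Rpl10 and Rpl10l are the X-linked and the autosomal form of a ribosomal protein gene. Rpl10 fell from 571, 270 and 213 to 71.1, 33.3 and 9.13 CPM (-3.52 ± 0.29, edgeR adjusted p = 5.2e-06), and Rpl10l rose from 120, 288 and 284 to 377, 525 and 540 CPM (1.13 ± 0.16, adjusted p = 2.5e-05). The sequences of this pair are alike and reads could be split between them, but their changes were opposite in all 3 libraries.

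RNA content per spike-in, the mitochondrial share and the number of detected genes changed by a smaller fold than the X-linked share. Gene UMIs per spike-in UMI were 7.04, 8.52 and 17.8 in pre-meiotic and 7.32, 10.4 and 19.2 in early pachytene sums, a difference smaller than that between libraries. Mitochondrial genes gave 3.43%, 3.23% and 2.00% of UMIs before and 2.99%, 2.5% and 1.65% after. At 44000 UMIs a median pre-meiotic cell had 7829, 8989 and 8412 detected genes and a median early pachytene cell 7471, 8101 and 7522. Each of these went one way in all 3 pairs, with the same smallest possible exact p of 0.25.

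Markers of somatic testis cells were present in both classes and differed between libraries more than between classes. None of 13 tested Sertoli genes was called (1 was lower without library 3), and the summed Sertoli list was 477 to 1375 CPM in pre-meiotic and 565 to 1340 CPM in early pachytene sums, with no listed member at 0 UMIs throughout. Of 8 Leydig genes 1 was higher (Star) and 1 lower (Scarb1), with sums of 150 to 326 and 237 to 377 CPM, and Insl3 was at 0. Of 10 peritubular and endothelial genes 3 were higher and 1 lower, with sums of 87.5 to 443 and 49.0 to 506 CPM. For the peritubular list the median early pachytene cell had 202, 164 and 37.1 CPM in libraries 1 to 3 and the highest cell 6915, 5885 and 137 CPM, against medians of 291, 266 and 83.1 CPM in pre-meiotic cells, so the median cell was lower in each library. Of 10 blood and immune genes 1 (H2-Ab1) was higher, with sums of 29.4 to 916 and 47.9 to 958 CPM. Library 1 was highest in both classes for all 4 lists, and their part in the class differences was not tested.

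The change was set against that in the 3 libraries labelled Zfp541 knockout at 260 h, which share no library with the wild type and hold 141 early pachytene and 61 pre-meiotic cells. Zfp541 UMIs do not check that label: with all 12 sums scaled together, the early pachytene sums labelled knockout had 185, 161 and 152 CPM and the wild-type ones 82.1, 112 and 158 CPM, and the pre-meiotic sums had 50.7, 22.3 and 19.8 CPM against 9.26, 42.1 and 64.5 CPM. The reads come from the 3′ end, and the sources used here do not give the position of the deletion. In a test of the difference itself (edgeR, class by genotype), 201 of 14293 genes (1.41%) had a class change that was higher in the libraries labelled knockout and 22 (0.154%) one that was lower, with 1953 at an unadjusted p under 0.05. Of the 201, 141 were called lower in wild type, and 42 of those 141 were also lower in the other genotype. Without wild-type library 3 the counts were 58 and 23, and without wild-type library 1 they were 254 and 157; 45 of the 223 genes were called whichever single library was left out.

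The 5 genes with the smallest p among the higher changes had all fallen in wild type. Atp2b1, a plasma membrane calcium pump gene, had 148, 155 and 131 CPM in wild-type pre-meiotic and 20.0, 15.7 and 10.8 CPM in wild-type early pachytene sums, against 166, 151 and 154 and then 111, 136 and 117 CPM in the libraries labelled knockout. The class change differed by 2.93 ± 0.25 on the log2 scale (edgeR adjusted p = 2.2e-06). Rasgrp2, a Ras exchange factor gene, fell in wild type from 76.4, 33.9 and 26.1 to 8.01, 8.37 and 5.39 CPM and rose in the libraries labelled knockout from 74.0, 66.5 and 58.1 to 167, 139 and 110 CPM. The histone methyltransferase gene Kmt2c, Gapdh and Ptma had differences of 2.81 ± 0.28, 2.36 ± 0.19 and 1.54 ± 0.16. Of genes that changed less or in the other direction in the libraries labelled knockout, Selenos, a selenoprotein gene, went from 79.8, 54.3 and 67.0 to 335, 212 and 274 CPM in wild type and from 95.5, 97.0 and 73.3 to 127, 183 and 126 CPM in the others. All 10 of the genes named for this difference kept their call without wild-type library 3, Mlf1 lost it without wild-type library 2 (edgeR adjusted p = 0.057), Pou2f2 lost it without library 1 of those labelled knockout, and 7 lost it without the replicate block.

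**Figure D5:**
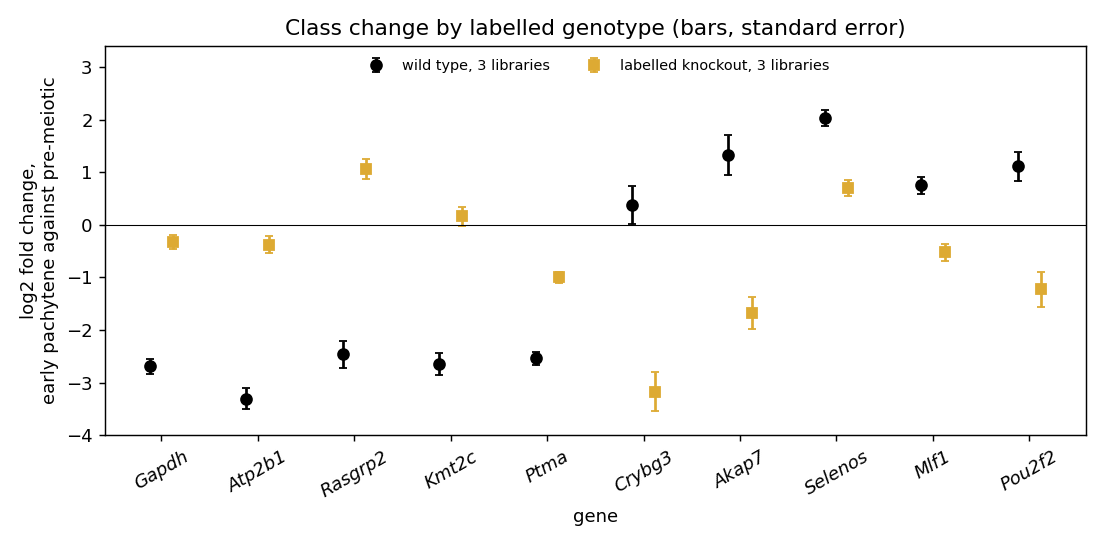
Log2 fold change between the classes in wild-type libraries (circles) and libraries labelled knockout (squares) for the 5 genes with the smallest p in each direction; bars are standard errors of the joint fit of 12 sums. Gapdh, Atp2b1, Rasgrp2, Kmt2c and Ptma fell by 2.47 to 3.31 in wild type and lay between -1.0 and 1.06 in the others.

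For the larger groups few genes were called by the same test. Of 468 X-linked genes none had a higher and 3 a lower class change in the libraries labelled knockout, with medians of -2.49 in wild type and -2.88. Of 53 axoneme genes 1 (Cfap69) was called, with medians of 1.83 and 1.90, and none of 13 synaptonemal complex genes was called, with medians of 1.25 and 1.68. A gene that misses the threshold is not shown to change equally.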

How the data were processed

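Single germ cells were sequenced from the 3′ end with UMIs. Per the submitters' processing notes, UMI-tools 1.0.0, STAR 2.5.3a, featureCounts 1.6.4 and the mm10 build were used; the sources used here do not give strandedness. The deposited values are raw UMI counts per gene and cell, made by the authors, with 55450 genes and 92 spike-ins per library; their cell table supplies the annotation. It also holds the authors' percent of each cell's counts from chromosome X, mitochondria, ribosomal genes and spike-ins, and the authors' principal component score of each cell, which entered no test. Here the counts of each class were summed per library (44624 to 285135 gene UMIs per kept wild-type cell) and tested with edgeR 4.0.16 (R 4.3.3; filterByExpr, TMM, robust quasi-likelihood, library + class; 2 residual degrees of freedom). The fit was also run on simulated counts with a single dispersion and equal numbers of rising and falling genes. Far fewer genes changed there than were called here, so that run does not test the error rate of these calls. Library pairs the sums because both classes come from the same pool: deviations of the same library correlated at 0.64, 0.47 and 0.68, and those of different libraries at -0.56 to -0.13. Deviations were taken from the mean of the 3 sums of a class, so negative values between libraries follow from positive ones within. The negative values are therefore no separate evidence for the pairing. Named genes were the 12 largest called changes in each direction at 50 CPM or more with all 3 pairs in agreement, leaving out predicted, accession-named and mitochondrial genes; up to 3 called genes of smallest p per list and direction at 10 CPM or more; and 15 genes always shown. Between genotypes they were the 5 called genes of smallest p in each direction. Other list members named in the text were chosen after their values were seen. Members and lists were chosen with earlier results of these data known. Doublets were not called here; cells had been picked singly. Alternatives included DESeq2 1.42.0 and limma 3.58.1.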

Additional observations from a re-analysis of the deposited data

Results flagged for a closer look

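The class change differed between the libraries labelled knockout and the wild-type libraries, by a test of the difference itself, for 201 genes with a higher and 22 genes with a lower change. The named genes with a higher change differed by 2.36 (Gapdh), 2.93 (Atp2b1), 3.53 (Rasgrp2), 2.81 (Kmt2c) and 1.54 (Ptma) on the log2 scale. Those with a lower change differed by -3.55 (Crybg3), -3.01 (Akap7), -1.33 (Selenos), -1.27 (Mlf1) and -2.34 (Pou2f2). Akap7 also had unlike starting levels, which were not tested: it read 5.79, 5.43 and 8.17 CPM in wild-type and 47.9, 65.7 and 46.9 CPM in pre-meiotic sums labelled knockout. Most early pachytene cells of wild-type libraries 1 and 2 belong to another cluster than those labelled knockout, and the part of that in these differences was not tested.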

How the results depend on the processing

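Of the 6703 genes called between the classes, none was called in the opposite direction under any alternative run, and 4620 were called in each of the 3 fits that left out 1 library. Leaving out 1 library gave 2725 to 3590 higher and 2954 to 3514 lower genes. Without the replicate block 1329 genes were higher and 1946 lower. Library sizes without TMM moved the median of all genes to -0.15. The difference of the class change between labelled genotypes moved more. Its higher count was 132 with library sizes only, 123 with thinned cells, 129 with DESeq2 and 4 without the replicate block, and 58 to 254 with 1 library left out. Its lower count was 40 with DESeq2, 0 without the replicate block (577 genes in all at an unadjusted p under 0.05) and 6 to 157 with 1 library left out. Both extremes came from wild-type libraries: 254 and 157 without library 1, 66 and 6 without library 2, 58 and 23 without library 3. Without libraries labelled knockout the counts were 133 and 14 (library 1), 130 and 19 (library 2) and 101 and 18 (library 3). The cause was not tested. Shares and RNA content kept their direction in every alternative run. With only the early pachytene cells of the submitters' cluster 2, which leaves libraries 1 and 2 as pairs, 2720 genes were higher and 2878 lower. A fit with only those of cluster 3 was not run, since that cluster holds 1 wild-type early pachytene cell outside library 3, and the merged table gave no different value. Library 2 limits the pre-meiotic class, with 11 cells and 682733 gene UMIs.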

Other observations

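Families of genes outside the lists, chosen after their values were seen, differed in how many members were called. Of 81 tested genes for cytosolic ribosomal proteins, 70 were lower in early pachytene cells and 3 were higher, with a median log2 fold change of -0.61; without library 3, 50 were lower. Rpl32 fell from 2649, 1415 and 908 CPM to 1568, 767 and 505 CPM. The 3 that were higher were Rpl10l, Rpl39l, both germ-cell forms, and Rps27l. Genes of respiratory complex I went the other way, 24 higher and 4 lower of 45 (median 0.39), with Ndufb5 at 245, 169 and 198 CPM before and 484, 374 and 408 CPM after. Other families, taken by gene symbol, were mixed. Of 75 mitochondrial ribosomal protein genes, 17 were higher and 9 lower (median 0.06). Among 48 genes with proteasome-type Psm symbols, 9 were higher and 16 lower (median -0.01). The 9 include Psmc3ip, named above as a strand invasion gene. Of 52 Eif translation factor genes, 11 were higher and 24 lower (median -0.27).

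All 12 tested genes of the Klf family of zinc-finger factors were lower, with a median of -2.33 (11 of them without library 3). Klf7 fell from 87.1, 60.3 and 89.1 CPM to 7.31, 2.89 and 2.54 CPM and Klf11 from 57.9, 42.5 and 58.1 to 6.64, 3.37 and 5.64 CPM. Of 288 long intergenic RNAs tested, 131 were higher and 41 lower (median 0.91), and of 169 antisense RNAs 66 were higher and 20 lower, with the rest not called; without a stated strand setting, reads of an antisense RNA and of its partner cannot be told apart. Of 273 processed pseudogenes, 126 were lower and 40 higher, and their reads can come from the parent genes.

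In pre-meiotic cells thinned to 44000 UMIs, Zbtb16 and Stra8 were found together in 29 of 52 cells, Zbtb16 alone in 17, Stra8 alone in 4 and neither in 2. By library, both were found in 12 of 24, 11 of 11 and 6 of 17 cells.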
